A study of Mus musculus with 14 samples.

Results

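The Rab family of small GTPases was examined in mouse intestinal organoids, which are small epithelial structures grown from intestinal crypts. Members were all probes of the array annotated with a symbol made of Rab, a digit, and at most one further digit and letter. There were 112 such probes for 59 genes, of 45281 probes for 19057 named genes on the array. Of these, 88 probes of 54 genes were bright enough to be tested. The other 24 probes were too dim, and with them Rab2b, Rab6b, Rab9b, Rab30 and Rab39 had no tested probe.

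Rab proteins are switches of membrane traffic. A guanine nucleotide exchange factor (GEF) loads a Rab with GTP on a given membrane, the GTP-bound Rab recruits effectors that tether, move or fuse vesicles, and a GTPase-activating protein (GAP) ends the signal. In the intestinal epithelium different Rabs serve the release of granules by Paneth, goblet and enteroendocrine cells, the transport of newly made proteins through the Golgi, uptake into endosomes and lysosomes, and the recycling of membrane proteins to the apical and basolateral surfaces. The members are described below in that order.

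The Apc-Prox1-deleted organoids carried villin-CreER with floxed Apc and floxed Prox1, and the Apc-deleted organoids carried villin-CreER with floxed Apc alone. Both genotypes had thus lost Apc, an inhibitor of Wnt signalling, and the villin promoter limited the deletion to epithelium. All were labelled C57Bl with an age of 2-3 months, received tamoxifen for 2 days, and were selected by 5 days of culture without the Wnt agonist R-Spondin1 before RNA was taken 7 days after tamoxifen was added. The question was what changes when the transcription factor Prox1 is lost in addition to Apc. The samples form 2 series with 14 entries. Among the 91 pairs of entries, 2 pairs matched at every probe to within 0.0143 log2, while every other pair had a probe that differed by at least 1.1671. One pair carried opposite genotypes (replicate 4 of the Apc-Prox1-deleted entries of series 1, and replicate 2 of the Apc-deleted entries of series 2). The other placed 1 Apc-Prox1-deleted array in both series, as replicate 3 of series 1 and replicate 2 of series 2. These 4 entries were left out. Series 2 then held 2 Apc-Prox1-deleted and 2 Apc-deleted libraries, and series 1 held 2 Apc-Prox1-deleted and 4 Apc-deleted libraries. Whether replicates are separate animals or cultures is not stated, and the p-values reflect only the spread among these libraries, which may be technical.

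Levels are given on a log2 scale whose floor lies near the median of each array, at 6.783 to 6.793. All tests were limma's moderated test with Benjamini-Hochberg adjustment over 26342 probes, and a probe was called at an adjusted p under 0.05. The brighter Prox1 probe had levels of 8.65 and 9.53 in Apc-Prox1-deleted and 10.91 and 10.05 in Apc-deleted libraries of series 2. In series 1 it had 7.85 and 8.29 in Apc-Prox1-deleted libraries, against 9.42 to 10.44 in Apc-deleted libraries, so the genotypes did not overlap in either series. Its difference (Apc-Prox1-deleted minus Apc-deleted) was -1.39 in series 2 (limma adjusted p = 0.0259) and -1.75 in series 1 (limma adjusted p = 0.000948). Xist, the RNA of the inactive X chromosome and a marker of female cells, was near the floor in all libraries except the Apc-deleted libraries of series 1, where 1 probe read 9.3 to 10.21. A sex marker therefore moves with genotype in series 1, where sex and genotype cannot be told apart, but not in series 2. The comparison over both series holds the same series 1 libraries, and its series term does not remove this. There the same Xist probe differed by -1.8 (limma adjusted p = 0.00747), so sex and genotype are not fully separated in it either. The epithelial keratin Krt8 read 12.72 to 13.89 in every library, the fibroblast and endothelial marker lists averaged at most 6.85, and the only probe named Epcam was at the floor in every library.

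The 3 Rab genes called in series 2 as well as in series 1 were Rab15, Rab3d and Rab32. The 300 bases around their annotated starts are shown because these are the members whose transcript levels differed most. The windows are from RefSeq (GRCm38.p6), all on the minus strand, written 5' to 3'. Those of Rab3d and Rab32 lie mostly upstream of the RefSeq gene, and that of Rab15 lies mostly inside it. All 22 named Rab genes were found in RefSeq. Capitals mark matches on either strand to the GC box GGGCGG, the E-box CAGCTG, or the TCF/LEF words CTTTGAA and CTTTGAT, the last being targets of the Wnt pathway. The matches do not overlap one another.
Rab15, chr12:76822475-76822774: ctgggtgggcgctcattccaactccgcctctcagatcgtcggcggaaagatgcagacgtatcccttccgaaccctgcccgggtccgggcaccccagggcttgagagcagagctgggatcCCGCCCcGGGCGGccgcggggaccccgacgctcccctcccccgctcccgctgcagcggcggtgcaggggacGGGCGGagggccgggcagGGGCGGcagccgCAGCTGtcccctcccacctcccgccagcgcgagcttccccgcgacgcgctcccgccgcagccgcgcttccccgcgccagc
Rab3d, chr9:21918134-21918433: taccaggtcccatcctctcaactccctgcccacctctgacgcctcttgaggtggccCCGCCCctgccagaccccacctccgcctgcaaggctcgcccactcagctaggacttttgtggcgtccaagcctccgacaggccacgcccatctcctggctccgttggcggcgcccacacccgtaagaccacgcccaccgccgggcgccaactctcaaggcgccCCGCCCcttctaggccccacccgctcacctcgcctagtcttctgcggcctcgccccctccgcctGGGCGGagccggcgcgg
Rab32, chr10:10558158-10558457: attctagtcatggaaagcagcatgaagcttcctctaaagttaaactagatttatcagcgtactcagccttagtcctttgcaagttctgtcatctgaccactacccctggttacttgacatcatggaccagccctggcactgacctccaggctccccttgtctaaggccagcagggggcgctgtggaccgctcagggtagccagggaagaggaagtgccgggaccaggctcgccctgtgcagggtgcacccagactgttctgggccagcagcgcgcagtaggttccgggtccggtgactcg
The Rab15 window, the first of the starts listed for that gene, held 4 GC boxes, 1 E-box and 38 CpG dinucleotides. The Rab3d window held 3 GC boxes and 26 CpGs, and the Rab32 window held no match and 10 CpGs. Among 32851 windows of the same length in the same table, 35.7% held a GC box, 16.3% the E-box and 8.65% a TCF/LEF word, and the median window had 7 CpGs. None of the 3 windows shown held a TCF/LEF word, and 1 of the other 3 start windows listed for Rab15 held 1. These are descriptions of letters, and no binding was measured.

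Over the whole family, few members differed between genotypes, and the share called lay close to that of the array. In series 2, 2 Rab probes were higher and 1 was lower in Apc-Prox1-deleted organoids, which is 3.41% of 88, against 4.12% of all probes (1.71% higher and 2.41% lower). In series 1, 5 were higher and 1 lower (6.82%, against 8.32% of all probes, 4.0% higher and 4.32% lower). Over both series, with a term for the series, 4 were higher and 4 lower (9.09%, against 12.7% of all probes, 5.94% higher and 6.79% lower). Counted by gene through the brightest probe, 14.8% of the 54 Rab genes were called over both series, against 15.8% of all genes (7.09% higher and 8.7% lower). By the same count 5.56% of the Rab genes were called in series 2, against 5.16% of all genes, and 11.1% in series 1, against 10.6%. By role the median difference over both series was -0.092 for exocytosis, -0.058 for the endoplasmic reticulum and Golgi, 0.027 for endocytosis and -0.049 for recycling, and 0.002 for all genes. The median Rab probe differed by -0.009 log2 over both series, and the median probe of the array by 0.005. The genotypes did not overlap in 33 Rab probes of series 2 (37.5%, against 41.0% of all probes) and in 30 of series 1 (34.1%, against 29.7%). In 13 Rab probes (14.8%, against 14.3% of all probes) the genotypes did not overlap in either series and differed the same way in both. The count for series 1 was 3 of 86 tested probes without Apc-Prox1-deleted replicate 1 of that series, against 3.0% of all probes, and 3 of 84 without replicate 2, against 2.87%. With all 14 entries used as labelled, 1 of 92 tested Rab probes was called in series 2, against 0.632% of all probes, and 6 of 92 in series 1, against 7.59%. The split of calls moved with the scaling. Series 1 had 6 higher and 3 lower of 88 without the quantile step over both series, against 11.3% of all probes. With cyclic loess it had 6 and 3 of 91, against 11.2%, and on the deposited ratios 5 and 3 of 88, against 10.7%. Series 2 had 1 higher and 1 lower under each of these, where 1.37% to 1.49% of all probes were called.

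**Figure D1:**
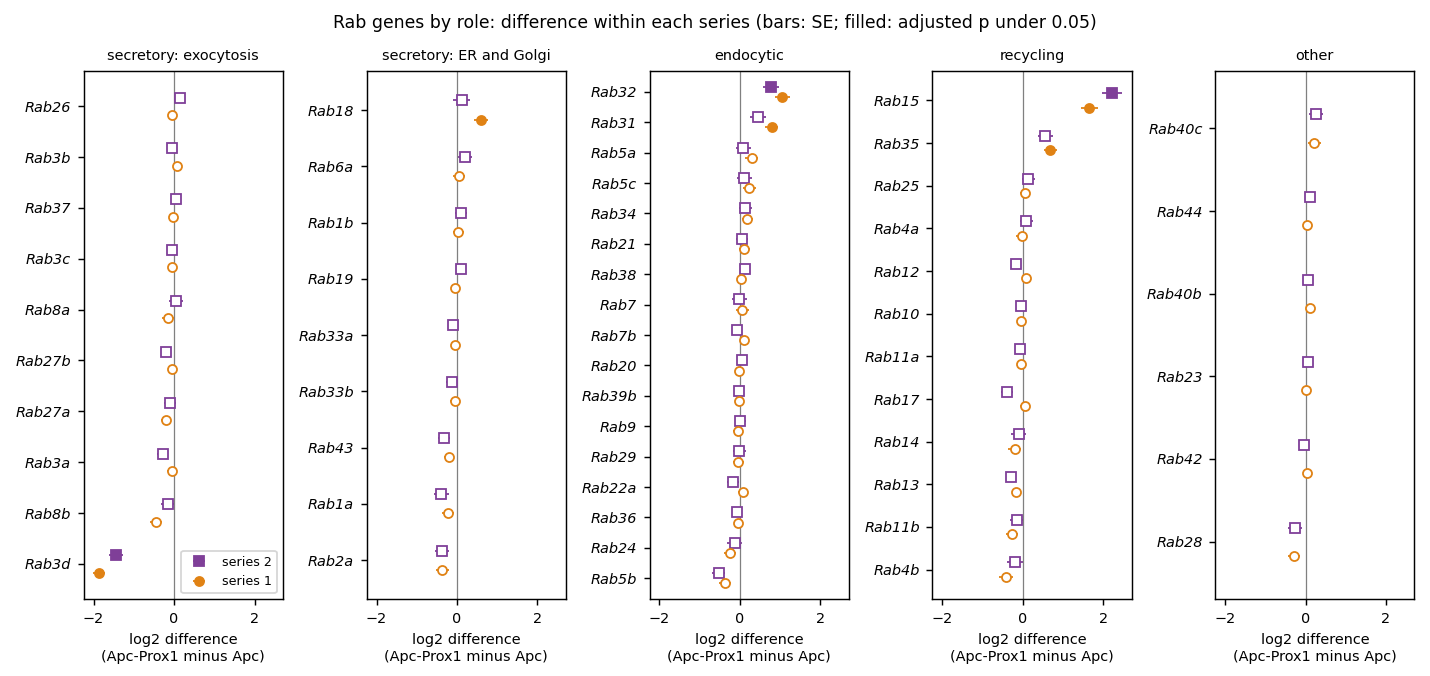
Difference in log2 level between Apc-Prox1-deleted and Apc-deleted organoids (horizontal axis) for the 54 tested Rab genes, in 5 panels by role, with purple squares for series 2 and orange circles for series 1. Bars are standard errors and filled symbols passed the test; most genes lie near 0, with Rab3d far to the left and Rab15 far to the right in both series.

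The Rabs of regulated exocytosis were represented by 10 tested genes, and 1 of them, Rab3d, changed. Rab3d coats the granules of exocrine secretory cells, and in mice its loss enlarges the granules of the pancreas and parotid gland. Rab3d had levels of 9.79 and 10 in Apc-Prox1-deleted libraries of series 2, against 11.39 and 11.27 in Apc-deleted libraries. In series 1 the levels were 8.88 and 8.97 in Apc-Prox1-deleted libraries, against 10.93, 10.84, 10.63 and 10.78 in Apc-deleted libraries. Every Apc-Prox1-deleted library was below every Apc-deleted library, across the series as well as within them. Rab3d fell by 1.44 on the log2 scale in series 2 (SE 0.18, limma adjusted p = 0.000115), a level 2.71-fold lower. The fall in series 1 was larger in size, at -1.87 (SE 0.15, limma adjusted p = 8.22e-07) or 3.65-fold. The difference between the series, series 2 minus series 1, was 0.43 with a 95% interval of -0.06 to 0.92 and did not pass the test (limma adjusted p = 0.774). With all 14 entries used as labelled, the adjusted p in series 2 was 0.0893.

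The mean levels of Paneth and enteroendocrine markers were lower in Apc-Prox1-deleted libraries of both series, as Rab3d was, while goblet markers were not lower in series 2. The mean level of the 6 Paneth cell markers was 10.49 to 10.59 in Apc-Prox1-deleted and 10.98 to 11.28 in Apc-deleted libraries of series 2, and 10.25 to 10.64 in Apc-Prox1-deleted and 11.04 to 11.5 in Apc-deleted libraries of series 1. Of these 6 genes 1 was called lower in series 2 and 4 in series 1, and none was called higher. Of all genes, 3.08% were called lower in series 2 and 5.94% in series 1. The defensin Defa26, a Paneth cell product, differed by -0.99 in series 2 and -1.37 in series 1, while lysozyme (Lyz1), also a Paneth cell product, differed by -0.23 and -0.28 without passing the test in either. The 10 enteroendocrine markers averaged 7.3 to 7.56 in Apc-Prox1-deleted and 7.68 to 7.95 in Apc-deleted libraries of series 2. In series 1 they averaged 7.11 to 7.44 in Apc-Prox1-deleted and 7.92 to 8.19 in Apc-deleted libraries, and of the 9 tested genes 3 were called lower in series 2 and 6 in series 1. The 7 goblet cell markers averaged 8.6 to 8.69 in Apc-Prox1-deleted and 8.49 in both Apc-deleted libraries of series 2, so they did not move with Rab3d there, and 8.8 to 9.11 in Apc-Prox1-deleted and 9.33 to 9.61 in Apc-deleted libraries of series 1. The defining markers Mmp7 (Paneth), Neurod1 (enteroendocrine) and Agr2 (goblet) were near the floor in all groups. The 6 enterocyte markers averaged 7.71 to 8.25 in Apc-Prox1-deleted and 7.82 to 7.98 in Apc-deleted libraries of series 2, and 8.01 to 8.12 in Apc-Prox1-deleted and 8.64 to 8.82 in Apc-deleted libraries of series 1, where 2 of 4 tested genes were called lower. Of the immune markers Cd74, an antigen-presentation gene that gut epithelium can also express, had a log2 difference of -1.37 in series 2, where it was the only one of 4 tested immune markers called. In series 1 the only immune marker called was Laptm5, a lysosomal membrane protein of blood cells, with a log2 difference of 0.34 (limma adjusted p = 0.0118). No tuft cell marker was called. These arrays measured whole organoids, in which fewer cells of a type and less RNA per cell cannot be told apart, and the part of cell composition in the Rab3d result was not tested.

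**Figure D2:**
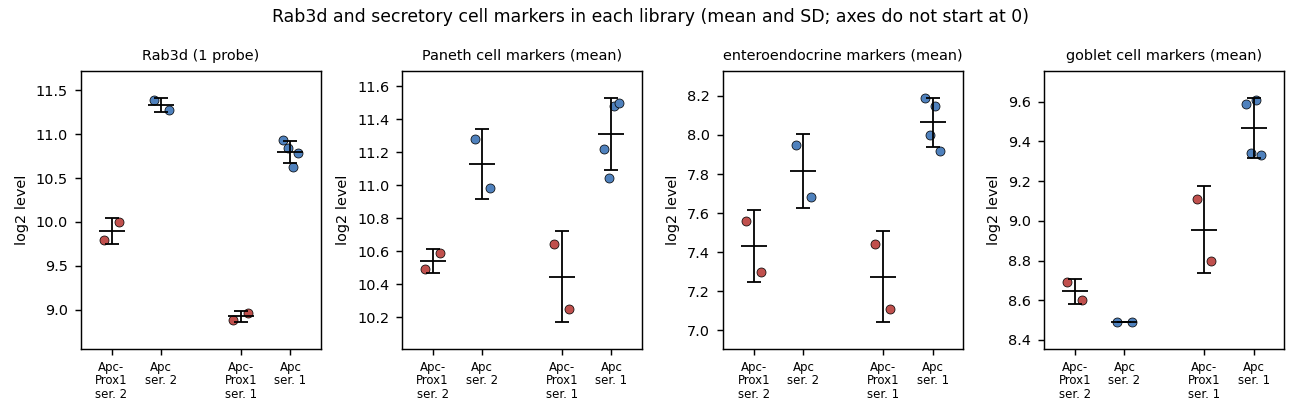
Log2 level of Rab3d and the mean log2 level of the Paneth, enteroendocrine and goblet marker lists (vertical axes, not starting at 0) in each of the 10 libraries, with mean and SD per group. Paneth and enteroendocrine means are lower in Apc-Prox1-deleted libraries of both series, as Rab3d is, whereas the goblet mean is lower in those of series 1 and slightly higher in those of series 2.

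The other exocytic Rabs showed no called difference, with values over both series between -0.32 and 0.03. Rab27a, which docks granules at the plasma membrane, averaged 7.76 ± 0.13 in Apc-Prox1-deleted and 7.86 ± 0.08 in Apc-deleted libraries of series 2 (SD, n = 2 each), and 7.39 ± 0.16 (SD, n = 2) and 7.6 ± 0.16 (SD, n = 4) in series 1. Its 95% interval over both series ran from -0.35 to 0.03. With Apc-deleted means of 7.86 and 7.6 and a floor of 6.783 to 6.793, a fall as large as that of Rab3d could not have been read. Rab8a, which carries apical proteins to the brush border, had a difference of -0.06 with an interval of -0.29 to 0.17, and a second probe gave 0.09. Rab26, which acts on maturing granules of zymogen-secreting cells, was near the floor, at 7.02 ± 0.01 in Apc-Prox1-deleted and 6.88 ± 0.04 in Apc-deleted libraries of series 2. The largest uncalled difference of this group over both series was that of Rab8b, a close relative of Rab8a, at -0.32 (limma adjusted p = 0.0856).

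Of 12 Rab genes of the endoplasmic reticulum and Golgi on the array, 9 were tested and 1, Rab2a, was called lower over both series. That is 11.1% of those tested, against 15.8% of all genes. Rab2a acts between the endoplasmic reticulum and the Golgi. It had levels of 11.44 and 11.74 in Apc-Prox1-deleted and 12.06 and 11.85 in Apc-deleted libraries of series 2. Series 1 gave 11.59 and 11.5 in Apc-Prox1-deleted libraries, against 11.71, 12.17, 12 and 11.76 in Apc-deleted libraries. The genotypes did not overlap in either series, but the gaps were small. Rab2a fell by 0.36 on the log2 scale over both series (SE 0.11, limma adjusted p = 0.0457, 1.29-fold lower), and did not pass within series 2 (-0.37) or series 1 (-0.36). Removing any 1 of 8 libraries ended this call, with adjusted p from 0.0507 to 0.154. It was kept only when the library removed was Apc-deleted series 1 replicate 1 or Apc-Prox1-deleted series 2 replicate 3.

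Rab18, a Rab of the endoplasmic reticulum and lipid droplets, passed the test in series 1 alone. Its levels there were 9.51 and 9.46 in Apc-Prox1-deleted libraries, against 8.55, 8.76, 9.08 and 9.16 in Apc-deleted libraries. In series 2 it had 8.91 and 9.02 in Apc-Prox1-deleted and 9.07 and 8.62 in Apc-deleted libraries, which overlap. The difference was 0.12 in series 2 (limma adjusted p = 0.841) and 0.60 in series 1 (SE 0.18, limma adjusted p = 0.0486), and that between the series did not pass (limma adjusted p = 0.801). Leaving out 1 library ended the series 1 call in 6 cases, with adjusted p of 0.286 and 0.261 without Apc-Prox1-deleted series 1 replicates 1 and 2, 0.0985 and 0.0739 without Apc-deleted series 1 replicates 1 and 2, and 0.0585 and 0.0582 without Apc-Prox1-deleted series 2 replicates 1 and 3. A second, dim probe of Rab18 differed by -0.08 in series 1 without passing.

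Rab1b, which drives transport from the endoplasmic reticulum to the Golgi, and Rab6a, which acts in traffic from and within the Golgi, showed no called difference. Over both series Rab1b differed by 0.06 with an interval of -0.14 to 0.27, and Rab6a by 0.11 with an interval of -0.12 to 0.34. Their dimmer probes, 2 for Rab1b and 3 for Rab6a, differed by -0.01 to 0.10 and did not pass either.

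Among the endocytic Rabs 2 genes rose and 1 fell over both series, of 17 tested and 19 on the array, which is 17.6%, against 15.8% of all genes. Rab32 builds lysosome-related organelles and also acts at mitochondria. It had levels of 9.03 and 8.61 in Apc-Prox1-deleted and 7.89 and 8.19 in Apc-deleted libraries of series 2. In series 1 it had 9.48 and 9.56 in Apc-Prox1-deleted libraries, against 8.56, 8.74, 8.08 and 8.46 in Apc-deleted libraries. The genotypes were separate in both series. Rab32 rose by 0.78 in series 2 (SE 0.20, limma adjusted p = 0.0382, 1.72-fold) and by 1.06 in series 1 (SE 0.18, limma adjusted p = 0.000952, 2.08-fold). The series 2 call ended when Apc-Prox1-deleted series 2 replicate 1 was removed (limma adjusted p = 0.329) or Apc-deleted series 2 replicate 1 (0.27), and narrowly on removing Apc-deleted series 2 replicate 3, Apc-Prox1-deleted series 1 replicates 1 or 2, or Apc-deleted series 1 replicate 4 (0.0579 to 0.0602). The result over both series (0.94, SE 0.14, limma adjusted p = 0.000225) was kept under every alternative run.

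Rab31 moves cargo from the trans-Golgi network to endosomes. Its levels were 10.05 and 9.89 in Apc-Prox1-deleted and 9.61 and 9.41 in Apc-deleted libraries of series 2, and 10.01 and 9.85 in Apc-Prox1-deleted and 8.99, 9.51, 8.97 and 9.1 in Apc-deleted libraries of series 1. The genotypes did not overlap in either series. Rab31 rose over both series by 0.65 (SE 0.13, limma adjusted p = 0.00331, 1.57-fold) and in series 1 by 0.79 (limma adjusted p = 0.00681), while 0.46 in series 2 did not pass (limma adjusted p = 0.244). The series 1 call was lost without either Apc-Prox1-deleted library of that series (limma adjusted p = 0.13 without replicate 1 and 0.0593 without replicate 2).

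Rab5b, one of the 3 Rab5 proteins that organise early endosomes, went the other way. It had levels of 7.51 and 7.87 in Apc-Prox1-deleted and 8.18 and 8.25 in Apc-deleted libraries of series 2. In series 1 the levels were 7.47 and 7.68 in Apc-Prox1-deleted libraries, against 7.84, 7.81, 7.89 and 8.27 in Apc-deleted libraries. It fell by 0.44 over both series (SE 0.11, limma adjusted p = 0.0116, 1.36-fold lower) with no overlap in either, and passed in neither alone, although in series 2 it passed with replicate 3 of the Apc-Prox1-deleted libraries of that series removed (limma adjusted p = 0.0464). With replicate 1 of the Apc-Prox1-deleted libraries of series 1 removed the adjusted p by limma was 0.0608. The brightest probes of the other Rab5 genes differed by 0.20 for Rab5a and 0.18 for Rab5c over both series, both short of the test, and with all 14 entries as labelled the value for Rab5c was -0.17. The 2 dimmer tested probes of Rab5a gave 0.16 and -0.07, also short of the test, so the probes of that gene disagreed in sign. Rab7, the Rab of late endosomes and lysosomes, differed by 0.03 over both series with an interval of -0.21 to 0.27, and its 2 dimmer tested probes by -0.06 and 0.01.

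The recycling Rabs held the largest rise of the family. Of 12 tested genes, Rab15 and Rab35 rose and Rab13 fell over both series, which is 25.0%, against 15.8% of all genes. Rab15 acts at early and pericentriolar recycling endosomes in cultured mammalian cells, where it slows the uptake and return of the transferrin receptor. It had levels of 12.97 and 12.02 in Apc-Prox1-deleted libraries of series 2, against 10.19 and 10.35 in Apc-deleted libraries. Series 1 gave 11.96 and 11.91 in Apc-Prox1-deleted libraries, against 10.39, 10.56, 10.05 and 10.12 in Apc-deleted libraries. The lowest Apc-Prox1-deleted library of either series lay more than 1 log2 step above the highest Apc-deleted library. Rab15 rose by 2.23 in series 2 (SE 0.25, limma adjusted p = 4.45e-05, 4.68-fold) and by 1.66 in series 1 (SE 0.21, limma adjusted p = 9.73e-05, 3.15-fold). The difference between the series was 0.57 with an interval of -0.12 to 1.26 (limma adjusted p = 0.8). Its call in both series was kept under every alternative run, among them each library left out in turn. The Paneth and enteroendocrine marker lists given beside Rab3d were lower in the same libraries, and their part in the Rab15 result was not tested.

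Rab35 returns cargo rapidly from endosomes to the plasma membrane. It had levels of 10.07 and 9.95 in Apc-Prox1-deleted and 9.43 and 9.46 in Apc-deleted libraries of series 2. In series 1 it had 10.5 and 10.71 in Apc-Prox1-deleted libraries, against 9.68, 10.19, 9.82 and 9.98 in Apc-deleted libraries. The genotypes did not overlap within either series, although the levels of series 1 were higher in both genotypes. Rab35 rose over both series by 0.63 (SE 0.12, limma adjusted p = 0.00207, 1.55-fold) and in series 1 by 0.69 (limma adjusted p = 0.0135), while 0.56 in series 2 did not pass (limma adjusted p = 0.123). The series 1 call was lost without Apc-Prox1-deleted replicate 1 (limma adjusted p = 0.0717) or replicate 2 (0.243) of that series, and the call over both series when all 14 entries were used as labelled (0.0814).

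Rab13, a Rab of epithelial junction assembly, was lower by a small step close to the floor. Its brighter probe had 7.03 and 6.99 in Apc-Prox1-deleted and 7.29 and 7.31 in Apc-deleted libraries of series 2. In series 1 the levels were 7.17 and 7.12 in Apc-Prox1-deleted libraries, against 7.36, 7.26, 7.37 and 7.23 in Apc-deleted libraries. It fell by 0.22 over both series (SE 0.06, limma adjusted p = 0.0258, 1.16-fold lower) with no overlap in either series. A second probe differed by -0.17 and did not pass (limma adjusted p = 0.0586). The call ended on removing Apc-Prox1-deleted series 1 replicate 2 (0.0882) or any 1 of the 4 libraries of series 2 (limma adjusted p = 0.0538 to 0.0618), and the level of this probe rests on the smaller of 2 scales that its deposited ratios allow.

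**Figure D3:**
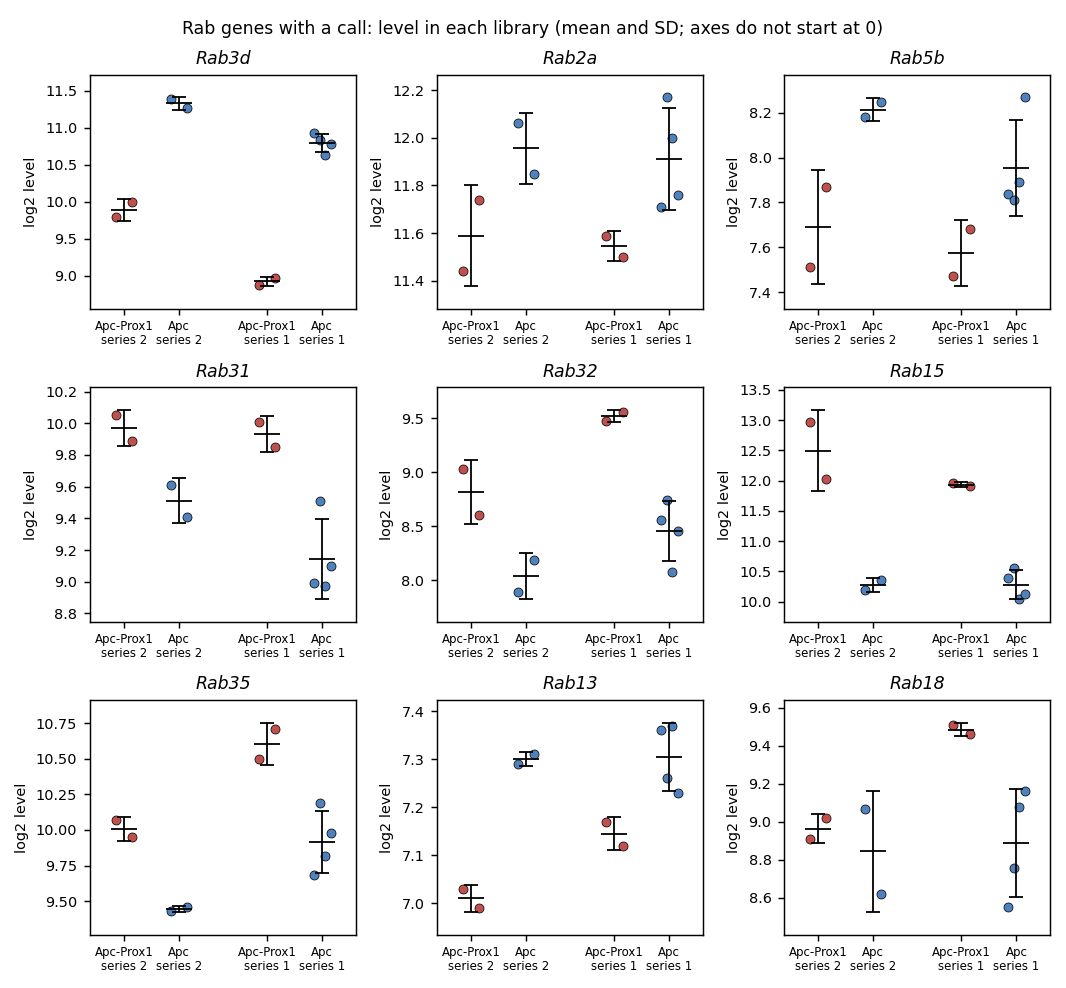
Log2 level (vertical axes, not starting at 0) of the 9 Rab genes called in series 2, in series 1 or over both, in each library, with Apc-Prox1-deleted in red, Apc-deleted in blue, and mean and SD as bars. Rab15 and Rab3d show the widest gaps; Rab18 overlaps between genotypes in series 2.

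The recycling Rabs best known from polarised epithelium showed no called difference. Rab25, a Rab11 relative found mainly in epithelia, averaged 13.04 ± 0.12 in Apc-Prox1-deleted and 12.9 ± 0.01 in Apc-deleted libraries of series 2 (SD, n = 2 each), and 12.72 ± 0.02 (SD, n = 2) and 12.66 ± 0.22 (SD, n = 4) in series 1. Its difference over both series was 0.09 with an interval of -0.11 to 0.30, and a second probe also gave 0.09. Rab11a, the central Rab of the apical recycling endosome, was read by 1 dim probe and differed by -0.05 with an interval of -0.20 to 0.09, at levels near the floor. Rab17, an epithelial Rab of transcytosis, averaged 7.82 ± 0.09 in Apc-Prox1-deleted and 8.2 ± 0.04 in Apc-deleted libraries of series 2 (SD, n = 2 each), a difference of -0.38 that did not pass (limma adjusted p = 0.202), and differed by 0.05 in series 1. Over both series Rab4a, which serves fast recycling, differed by 0.02 with an interval of -0.20 to 0.24. Rab14, which links the Golgi and endosomes, differed over both series by -0.16 with an interval of -0.41 to 0.09. For Rab10, a Rab of basolateral sorting, the value over both series was -0.04 with an interval of -0.20 to 0.11. Its brightest probe lay near the floor, at 6.69 to 7.33. The 6 tested Rabs outside these roles, among them Rab23 and Rab28, ranged from -0.28 to 0.23 over both series with none called.

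The effect of Prox1 loss on the Rab genes did not differ between the series at the threshold. None of 88 Rab probes was called for that difference by limma, against 0.562% of all probes, and 3 had an unadjusted p under 0.05. Levels themselves did shift between the series. In 12 of 54 Rab genes the 4 libraries of series 2 did not overlap the 6 of series 1, with 6 higher and 6 lower. The same count was not made over all genes, so it does not show whether Rab genes shifted more than others. Rab5c averaged 8.57 ± 0.22 in series 2 (SD, n = 4) and 9.68 ± 0.16 in series 1 (SD, n = 6). Rab1b averaged 9.44 ± 0.1 in series 2 and 8.48 ± 0.08 in series 1, and Rab6a 9.54 ± 0.18 and 8.8 ± 0.12. For Rab7 the brightest probe was lower in series 2, whereas its 2 dimmer tested probes were higher there. These shifts were not tested, and the labels do not say in what the series differ.

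Rab regulators and effectors were followed as fixed lists. Among 70 tested regulators (GEFs, GAPs, escorts and prenylation enzymes) 10 rose and 5 fell over both series (21.4%), and among 59 tested effectors 8 rose and 3 fell (18.6%), against 15.8% of all genes. The median differences were 0.041 for regulators and 0.013 for effectors, and 0.002 for all genes. Together, 10 of 129 genes were called in series 2 (7.75%, against 5.16% of all genes) and 17 in series 1 (13.2%, against 10.6%). The count over both series was 26 (20.2%, against 15.8% of all genes). With a term for each replicate number within its series it was 15 of 129. The share of all probes called was then 7.58%, against 12.7% without that term. These shares are of probes and the 129 are genes, so they are not on the same base, and the share of all genes was not counted with that term.

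Tbc1d2, a GAP that acts on Rab7, had the smallest p among the regulators. It had levels of 9.84 and 9.35 in Apc-Prox1-deleted and 8.64 and 8.71 in Apc-deleted libraries of series 2. Series 1 gave 10.37 and 10.22 in Apc-Prox1-deleted libraries, against 8.64, 9.15, 8.81 and 8.96 in Apc-deleted libraries. The genotypes were well apart in both series, and the rise over both was 1.20 (SE 0.14, limma adjusted p = 3.69e-05, 2.3-fold), while Rab7 itself was not called. Sgsm3, another Rab GAP, rose by 0.81 (SE 0.14, limma adjusted p = 0.000962). Rab11fip5 and Sh3tc2 both bind Rab11 at recycling endosomes, and they rose by 0.91 (SE 0.12, limma adjusted p = 8.45e-05) and 0.76 (SE 0.11, limma adjusted p = 0.00026). Mical2, a monooxygenase of actin from a family that binds Rabs, rose by 0.61 (SE 0.07, limma adjusted p = 3.87e-05).

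The regulators that fell included Dennd2a and Dennd3, GEFs with DENN domains. Dennd2a, which acts on Rab9, had levels of 6.91 and 6.88 in Apc-Prox1-deleted and 7.77 and 7.79 in Apc-deleted libraries of series 2, and 6.85 and 6.88 in Apc-Prox1-deleted and 7.25 to 7.45 in Apc-deleted libraries of series 1. The Apc-Prox1-deleted libraries thus lay near the floor, and the log2 difference over both series was -0.64 (SE 0.08, limma adjusted p = 7.07e-05). Dennd3, which acts on Rab12, differed by -0.63 (SE 0.10, limma adjusted p = 0.000343). Hps1, a subunit of the BLOC-3 complex that activates Rab32 and Rab38, differed by -0.33 (SE 0.08, limma adjusted p = 0.0091), opposite in sign to Rab32. The adjusted p of Hps1 by limma was 0.0638 once replicate 1 of the Apc-Prox1-deleted libraries of series 1 was removed. Rab11fip3, a Rab11 effector of cytokinesis, differed by -0.33 (limma adjusted p = 0.00635), opposite in sign to Rab11fip5, and Osbpl1a, a sterol-binding Rab7 effector, by -0.36 (limma adjusted p = 0.0145). The genotype difference of 1 of the 129 genes differed between the series (0.775%, against 0.616% of all genes). It was Rims2, a Rab3 effector of exocytosis named here after its values were seen, at -0.30 in series 2 and near the floor in every group.

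**Figure D4:**
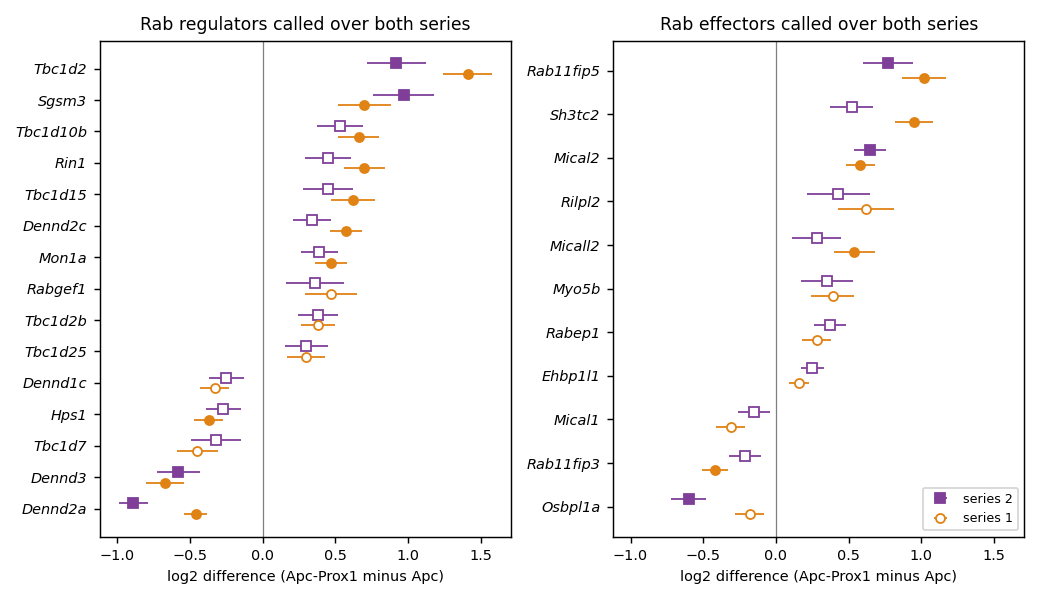
Log2 difference between Apc-Prox1-deleted and Apc-deleted organoids (horizontal axis) for the 15 regulators and 11 effectors of Rabs called over both series, with purple squares for series 2, orange circles for series 1, and standard errors as bars. Filled symbols passed the test within that series; each gene lies on the same side of 0 in both series.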

How the data were processed

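Total RNA of organoids was measured on Illumina bead arrays. The authors' deposited table holds ratios, with a median of 1 for every probe within each series, and their background correction and normalization are not given in the sources used here. Each ratio was read as a log2 value over the probe's median log2 value in its series. Divisors from 6.0 to 16.0 were searched in steps of 0.005 for those that turn all ratios of a probe into whole steps of 0.01. Levels were recovered for 45248 probes, and 33 were left out. The divisor was unique in both series for 27 of the 112 Rab probes. For the other 85 the smallest was taken, and a multiple of it would raise the level and the differences in proportion. Among the called Rab genes this concerned Rab13 in both series and Rab5b in series 2, and among the 10 named regulators and effectors all but Tbc1d2 and Sgsm3. The log base was taken from the range of recovered values, 6.35 to 15.23. Probes simulated in the same form were recovered exactly in 100.0% of settled cases. A further deposited table was not used, because its 28 value columns carry names that match no label.

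Values were quantile normalized over all 14 entries, and the 10 libraries left after removing copies (no probe differing by over 0.02) were fitted with limma 3.58.1 in R 4.3.3 (lmFit and eBayes with a variance trend). Probes above the 50th percentile of their array on at least 3 libraries were tested, which left 26342 and removed 18906. Of the tested Rab probes 19 never exceeded 7 log2, so they may hold no signal, and any fold change in them may be understated. The 4 groups shared 1 fit with 6 residual degrees of freedom, and the comparison over both series had a series term and 7. Positive differences mean higher in Apc-Prox1-deleted organoids. Test data were simulated as independent normal draws with each probe's fitted spread, so they hold no shared effects such as sex or cell composition. Of 100 probes changed by 1 log2 step limma recovered 98% in series 2, 98% in series 1 and 100% over both. Of 100 changed by 0.5 log2 it recovered 64%, 70% and 89%. False calls numbered 14, 11 and 13, and these shares hold for such draws only. Precision is limited by the number of arrays.

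The first component held 52.9% of the variance and the second 24.6%, and all 10 libraries had their closest match within their own group. Gene symbols came from the platform's annotation, which gives 34885 probes 1 symbol, 18 several and 10378 none, and promoters from RefSeq. A gene was read through its brightest tested probe. Every Rab gene with a call was named, with 17 Rabs named whatever their values, and of regulators and effectors the 5 higher and 5 lower with the smallest p over both series. The members and lists were chosen with earlier results of these data known, and Rab29 was placed among endocytic Rabs after the files were read. Alternatives were all 14 entries, no filter or a stricter one, no quantile step, cyclic loess, a robust variance prior, the deposited ratios as they are, the replicate number as a block, 1 series alone, and each library left out.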

Additional observations from a re-analysis of the deposited data

Results flagged for a closer look

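The genotype difference of Xist differed between the series. Series 2 minus series 1 was 3.18 (limma adjusted p = 2.35e-06), 2.91 (limma adjusted p = 4.11e-06) and 0.64 (limma adjusted p = 0.00971) for 3 of its 4 probes. In 1 of these probes the levels were 6.68 and 6.66 in Apc-Prox1-deleted and 6.64 and 6.66 in Apc-deleted libraries of series 2, and 6.68 and 6.69 in Apc-Prox1-deleted and 9.3, 9.99, 9.87 and 10.21 in Apc-deleted libraries of series 1. Among the genes of the lists, series 2 minus series 1 was -0.41 for the effector Rims2 (limma adjusted p = 0.0309), with -0.30 in series 2 and 0.11 in series 1. It was 1.44 for the goblet cell mucin Muc2 (limma adjusted p = 0.00893), 2.33 for the enterocyte enzyme Sis (limma adjusted p = 0.00147) and -1.36 for Cd74 (limma adjusted p = 0.000109). No Rab gene passed this test. The only group of 4 libraries was the Apc-deleted group of series 1. In the 38 sets of 4 values examined, none held a library that stood apart by Dixon's limit of 0.829. The other groups hold 2 libraries, too few for that check, so no Apc-Prox1-deleted or series 2 library was covered.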

How the results depend on the processing

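No call of a named Rab, regulator or effector changed direction under any alternative run. Across settings 1343 of the single-gene values kept their side of the threshold, 54 lost a call and 4 gained one. Besides Rab5b, those gained were Rab13 in series 2 with the stricter filter (adjusted p = 0.0431) and Rab18 over both series without replicate 1 of the Apc-deleted libraries of series 2 (0.0243). Series 2 had 1 called Rab probe with all 14 entries as labelled, against 3, and over all probes 184 were called then, against 1085. Rab32 then had an adjusted p of 0.258 in series 2. Leaving out 1 library gave 3 to 7 Rab calls in series 1, 2 to 4 in series 2, 6 to 9 over both series and 0 for the difference between series, and 17 to 32 regulators and effectors. Deviations of same-numbered libraries from their group means correlated at -0.025 and 0.191 in series 1 and at 0.091 in series 2. With 2 libraries in each group of series 2, its 2 pairs must give the same value. These few values cannot settle whether the numbers mark pairs, and the labels do not say. With the replicate number as a block the Rab calls were 5 of 88 in series 1 (6.12% of all probes) and 4 in series 2 (4.61%). They were 7 over both series (7.58%) and 0 for the difference (0.869%), and 15 regulators and effectors were called over both series. The block lowered the count of all probes over both series to 1996, against 3353, and ended the calls of Rab31 (adjusted p = 0.0601) and Rab35 (0.0544) in series 1, of Rab13 (0.0883) and Rab2a (0.122) over both series, and of Hps1 (0.0519) and Osbpl1a (0.0631), while Rab5b gained a call in series 2 (0.0458). All probes called in series 2 were 393 with no quantile step, 372 with cyclic loess, 360 on the deposited ratios and 568 from series 2 alone. For the difference between series 148 of all probes were called, against 53 with all 14 entries, 64 with the stricter filter, 59 on the deposited ratios and 229 with the block. Without replicate 1 or replicate 2 of the Apc-Prox1-deleted libraries of series 1, all probes called were 771 and 738 in series 1, against 2191, 2086 and 1916 over both series, and 66 and 75 for the difference. In series 2 they were 466 and 413 without its Apc-deleted or its Apc-Prox1-deleted replicate 1, and the difference had 69 without the first of these. Rab32 lost its series 2 call under no quantile step, cyclic loess, the ratios and series 2 alone (adjusted p = 0.0629 to 0.132), and without a filter (0.0584). Rab18 lost its series 1 call without a filter (0.0883) and from series 1 alone (0.058), Rab2a its call without a filter (0.0743) and Rab13 with cyclic loess (0.0507). With all 14 entries Sh3tc2 (0.158), Osbpl1a (0.161), Rab13 (0.0623), Rab18 (0.186) and Rab35 in series 1 (0.257) lost calls. The cause of these changes was not tested. The alternatives for regulators and effectors beyond the filter and the 14 entries were chosen after seeing the data. Differences near the floor are bounded by background, and no detection p-values could be used.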
